A study of Sus scrofa domesticus with 16 samples.

Results

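The lung DNA methylation of 5 genes, ITIH2, MIPEP, PSMA1, HDLBP and KLHL3, was examined in pigs fed an increased or a standard dose of cholecalciferol (vitamin D3). These genes are the ones that the study lists with a change in both methylation and lung mRNA, with its one-carbon and vitamin genes left out. Every row of the authors' deposited table that carries one of the 5 symbols was taken, which gave 7 differentially methylated sites (DMSs) of 2349 DMSs in all, and 5 of 898 gene symbols. Since the genes were chosen by these same methylation differences, the differences and q-values below are a description, and no test of them was made.

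Cytosine methylation beside the cut sites of the enzyme MspI was read by reduced representation bisulfite sequencing in lung tissue of 16 pigs (Sus scrofa domesticus). The increased-dose group held 8 animals, fed 3000 IU/kg of cholecalciferol in grower feed and 2500 IU/kg in finisher feed. The standard-dose group held 8 animals, fed 2000 IU/kg in grower feed and 1500 IU/kg in finisher feed. Each group had 4 males and 4 females, all slaughtered at maturity, and both groups received cholecalciferol throughout, so that the comparison is between doses of the vitamin and not between its presence and absence.

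For each DMS the deposited table gives its position, its q-value from methylKit and a difference in methylation, given in percentage points and read as the increased dose minus the standard dose. A positive value is called a gain and a negative value a loss. Group means, single animals and sequencing depth at a site do not enter here, so no spread between animals stands beside any value, the depth behind each difference is unknown, and no marker check of the tissue could be made from these values. All rows lie past the limits of 25 points and a q of 0.05. Read as rows of a table of all tested sites, the row numbers reach 667810 at the last DMS, so that at least this many sites were tested. The DMSs then made up at most 0.352% of tested sites, the gains at most 0.209% and the losses at most 0.143%. The study chose the 5 genes from these rows, and nothing about them is read from these percentages.

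The 5 genes act in separate parts of the cell. ITIH2 encodes a heavy chain of the inter-alpha-trypsin inhibitor, a plasma protein made mainly in the liver, whose heavy chains are transferred to hyaluronan in the extracellular matrix. MIPEP encodes the mitochondrial intermediate peptidase, which trims imported proteins after their presequence has been removed. PSMA1 is an alpha-type subunit of the proteasome core, HDLBP encodes vigilin, an RNA-binding protein built of many KH domains, and KLHL3 is the substrate adaptor through which the CUL3 ubiquitin ligase marks WNK kinases for degradation. Cytosine methylation in vertebrates is found mostly at CpG dinucleotides. It is known for silencing when dense at promoters, while in gene bodies it is common in transcribed genes.

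The bases around the sites are shown because the sites differ in CpG content, in their place relative to MspI sites and in how often their sequence recurs in the genome. All sequences were read from the RefSeq copy of Sscrofa11.1, the build of the deposited positions, 5′ to 3′ on the plus strand unless named otherwise. In the windows around sites, the capitals mark the CpG whose cytosine is the DMS. The windows are chr10:63674622-63674722 for ITIH2, chr11:2752344-2752643 for the first and second MIPEP sites, chr11:2763151-2763251 for the third MIPEP site, chr2:44722427-44722527 for PSMA1 on both strands, chr15:139978071-139978171 for HDLBP and chr2:139728279-139728379 for KLHL3.
ITIH2: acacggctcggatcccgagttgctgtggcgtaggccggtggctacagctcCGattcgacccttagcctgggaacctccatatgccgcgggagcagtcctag
MIPEP sites 1 and 2: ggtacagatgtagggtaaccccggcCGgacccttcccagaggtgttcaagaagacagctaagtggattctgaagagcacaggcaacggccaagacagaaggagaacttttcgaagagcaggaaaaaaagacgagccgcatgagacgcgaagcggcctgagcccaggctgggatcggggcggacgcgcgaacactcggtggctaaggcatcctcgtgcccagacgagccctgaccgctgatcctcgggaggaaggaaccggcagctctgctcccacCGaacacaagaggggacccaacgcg
MIPEP site 3: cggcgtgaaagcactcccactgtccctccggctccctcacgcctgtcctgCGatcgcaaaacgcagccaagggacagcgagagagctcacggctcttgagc
PSMA1: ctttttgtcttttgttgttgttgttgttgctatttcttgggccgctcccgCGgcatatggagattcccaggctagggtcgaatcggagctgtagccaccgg
PSMA1, minus strand: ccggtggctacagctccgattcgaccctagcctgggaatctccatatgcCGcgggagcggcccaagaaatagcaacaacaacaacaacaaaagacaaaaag
HDLBP: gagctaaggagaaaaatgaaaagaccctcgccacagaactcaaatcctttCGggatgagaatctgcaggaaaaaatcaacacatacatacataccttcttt
KLHL3: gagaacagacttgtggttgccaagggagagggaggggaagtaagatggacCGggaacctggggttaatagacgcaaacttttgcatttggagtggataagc

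Of the 7 DMSs, 6 were gains and 1 was a loss. Gains were found in all 5 genes, and the loss was 1 of the 3 sites of MIPEP. Gains made up 1394 of all 2349 DMSs (59.3%). The sizes ran from 25.7 to 30.6 points with a median of 27.3 points, against a median of 30.4 points and a maximum of 66.3 points in the whole table. All 7 sites therefore lay in the lower part of the range of sizes in the table. The DMS nearest to the limit of 25 points was that of PSMA1 at 25.7 points. Sites just outside the limit are not used here.

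**Figure D1:**
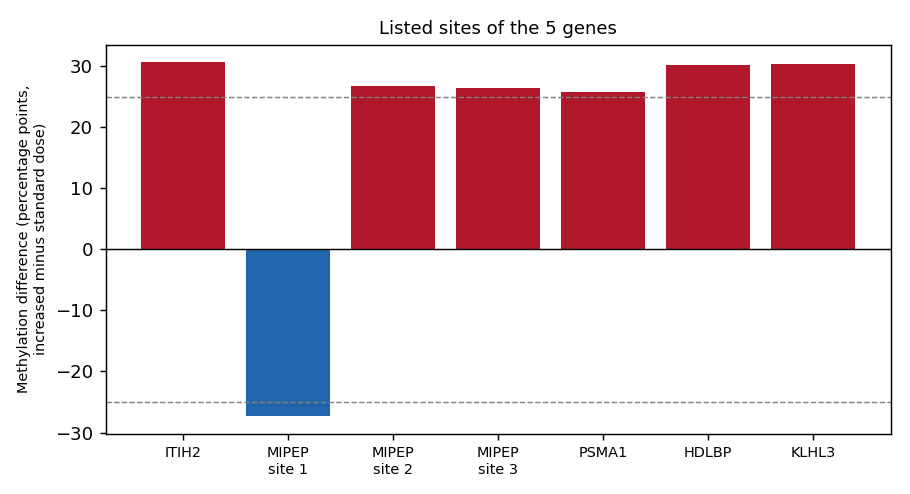
Difference in methylation (increased minus standard dose, vertical axis, in percentage points) at the 7 listed sites of the 5 genes, with gains in red, the loss in blue and dashed lines at the limit of 25 points; no error bars are drawn because the table holds no values per animal. The gains lie between 25.7 and 30.6 points and the loss of MIPEP at -27.3 points.

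ITIH2 had 1 DMS, on chromosome 10 at position 63674672, with a gain of 30.6 points (q = 9.8e-29). In the study, lung mRNA of ITIH2 was lower with the increased dose, and its qPCR also found a significant decrease. Its site thus gained methylation where the study gives less mRNA. RefSeq places ITIH2 on the minus strand from 63635206 to 63672200, which puts the site 2472 bp upstream of the gene's start. The nearest gene on the other side, ITIH5, which encodes another inter-alpha-trypsin inhibitor heavy chain, is read in the opposite direction and begins 13744 bp beyond the site. The study places this change in the promoter, as for no other gene changed in both measures. With RefSeq promoters drawn as 1000 or 2000 bp the site lay between genes. It became a promoter site only when they were drawn as 5000 bp. Such promoters of 5000 bp held 4.41% of the 2245 other DMSs on chromosomes.

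MIPEP was the only one of the 5 genes with more than 1 DMS and the only one with both directions. On chromosome 11, the first site at position 2752369 lost 27.3 points (-27.3, q = 1.2e-30), the second at 2752619 gained 26.8 points (q = 9.0e-43) and the third at 2763201 gained 26.4 points (q = 4.6e-14). The study lists the loss alone beside a lower lung mRNA of MIPEP. Read over all of its rows, the gene held 1 loss and 2 gains, so that no single direction of methylation stands beside the mRNA. RefSeq places MIPEP on the minus strand from 2675604 to 2790760 with 19 exons. The first and second sites lay in intron 14, which is 18187 bp long, and were 6852 and 6602 bp from the nearest exon. The third lay in intron 11, 586 bp from the nearest exon.

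The first and second MIPEP sites were 250 bp apart and differed by 54.1 points. Between them the reference holds 18 CpGs, and the row numbers leave room for 4 tested sites that are not listed as DMSs. The cytosine of the first site belongs to an MspI site (cCGg in the window). The next MspI site of the window lies between the DMSs at 2752600, so that the loss and the gain fell on separate MspI fragments, of 232 and 399 bp. The third site was 10582 bp from the second, with room for 35 tested sites. In the whole table, 204 symbols had 2 or more DMSs, and 57 of them (27.9%) held both directions. Of 43 symbols with 3 DMSs, 12 did so. Among 294 pairs of neighbouring DMSs at most 300 bp apart, 43 (14.6%) had opposite directions, as did 5 of the 23 pairs over 100 and up to 300 bp apart.

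PSMA1 had 1 DMS, on chromosome 2 at position 44722477, with a gain of 25.7 points (q = 4.9e-11). In the study, lung mRNA of PSMA1 was higher with the increased dose, unlike that of the other genes. Here a gain stands beside more mRNA. RefSeq places PSMA1 on the plus strand from 44740102 to 44755296, and the site 17625 bp upstream of its start. There it lay in intron 3 of the long non-coding RNA gene LOC106507279, which lies on the minus strand from 44659713 to 44740029, with 72 bp between it and PSMA1. The symbol in the deposited table and the RefSeq gene therefore differ at this site. The study, which annotated genes from Ensembl, lists the PSMA1 change as intronic. Whether the site lies within PSMA1 thus depends on the annotation. Of 1183 chromosomal DMSs whose symbol RefSeq also holds, 1010 (85.4%) lay inside that gene, 34 (2.87%) lay over 5000 bp outside it, and 17 were as far away as the PSMA1 site or farther.

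HDLBP had 1 DMS, on chromosome 15 at position 139978121, with a gain of 30.2 points. Its q of 5.9e-07 was the highest of the 7, and 91.1% of all DMSs had a lower q. In the study, lung mRNA of HDLBP was lower with the increased dose. The gene runs on the minus strand from 139957703 to 140025336. The site lay in intron 5 of its transcript with 28 exons, 929 bp from the nearest exon, and all 11 RefSeq transcripts span it. The nearest of their starts was 12307 bp upstream.

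KLHL3 had 1 DMS, on chromosome 2 at position 139728329, with a gain of 30.4 points (q = 7.7e-37), beside a lower lung mRNA by sequencing in the study, whose qPCR did not find that decrease significant. The gene runs on the minus strand from 139632868 to 139890079 and is the longest of the 5, at 257212 bp. The site lay in intron 2 of its transcript with 15 exons, 8466 bp from the nearest exon of that transcript and 1011 bp from the nearest exon of any transcript. Of 16 RefSeq transcripts, 13 span the site and 3 start downstream of it. The nearest upstream start was 8481 bp away. As at the first MIPEP site, the cytosine belongs to an MspI site (again cCGg). This was so at 2 of the 7 DMSs and at 8.02% of the other chromosomal DMSs.

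**Figure D2:**
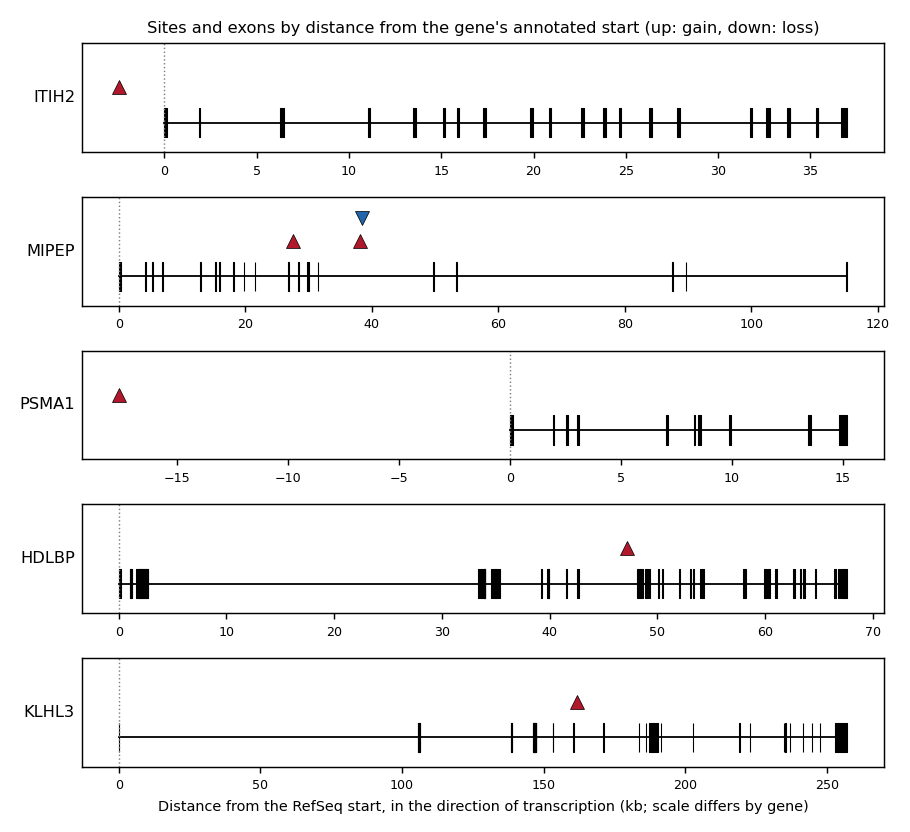
Position of the 7 sites (red upward triangle, gain; blue downward triangle, loss) and of all RefSeq exons (black boxes) in kb from the annotated start of each gene, in the direction of transcription, with a separate scale for each gene. The ITIH2 and PSMA1 sites lie upstream of the RefSeq start, 2472 and 17625 bp away, and the other 5 sites lie in introns of their own gene.

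Set side by side, the 4 genes with lower mRNA in the study were ITIH2, HDLBP and KLHL3, with a gain at their only DMS, and MIPEP, with 1 loss and 2 gains. The gene with higher mRNA, PSMA1, had a gain. The mRNA data were not analysed here. The study's mRNA sequencing came from fewer animals than the methylation and from a single sex, against both sexes for methylation. Its qPCR, which among these genes was run on ITIH2 and KLHL3, covered both sexes. The 5 genes, chosen for changing in both measures, cannot test a relation between them. The 6 other genes that the study lists were not alike in direction either. Under their symbols the deposited table holds 5 DMSs in 4 genes, 2 gains and 3 losses.

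By size, the sites of ITIH2, KLHL3 and HDLBP stood near the middle of the table, with 51.7%, 50.4% and 49.1% of DMSs smaller. The MIPEP sites stood lower, with 26.2%, 22.1% and 17.4% of DMSs smaller for the first, the second and the third site, and that of PSMA1 lowest, with 10.6%. By q the order was another. The second MIPEP site had the lowest q, with 12.0% of DMSs lower still, followed by KLHL3 with 14.9%, the first MIPEP site with 20.4% and ITIH2 with 22.4%. MIPEP site 3 (54.9%), PSMA1 (68.7%) and HDLBP (91.1%) followed. ITIH2, HDLBP and KLHL3 thus had nearly equal differences, between 30.2 and 30.6 points, with q-values between 7.7e-37 and 5.9e-07. The depth behind each is unknown, and its part in the order of q-values was not tested.

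**Figure D3:**
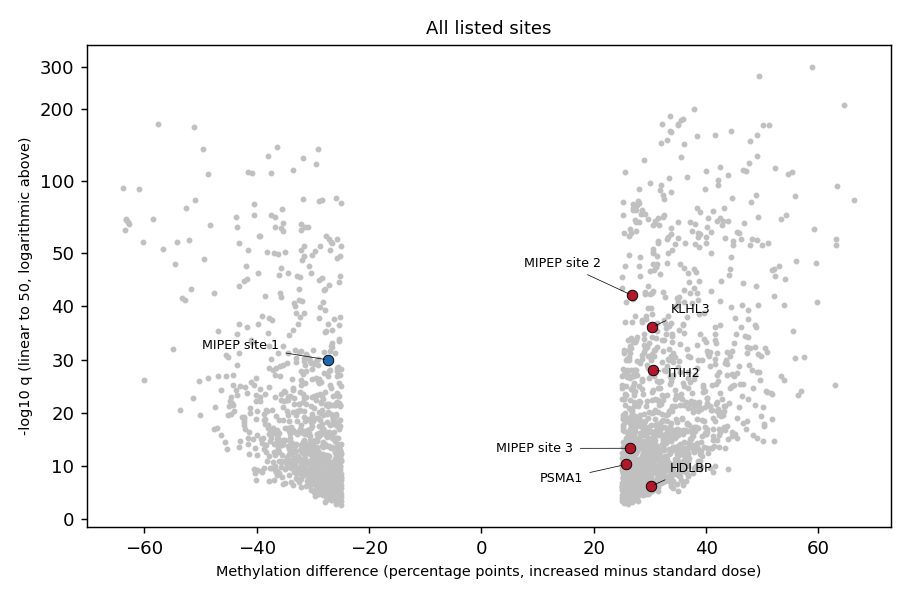
Difference in methylation (increased minus standard dose, horizontal axis, in percentage points) against -log10 q (vertical axis, linear to 50 and logarithmic above) for all 2349 DMSs in grey, with the 7 sites in red (gains) and blue (loss); 1 site listed at a q of 0 is drawn at 300. The 7 sites lie close to the limit of 25 points on both sides, and HDLBP lies lowest of them.

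The sequence around the sites ranged from CpG-poor to CpG-rich. In the 500 bp around each site the reference holds 30, 31 and 35 CpGs at the MIPEP sites in the same order, 23 at ITIH2, 23 at PSMA1, 22 at HDLBP and 5 at KLHL3. The median was 23.0 CpGs, against 17.0 at the 2245 other chromosomal DMSs, whose middle part from the lower to the upper quartile ran from 12.0 to 22.0. KLHL3 and the third MIPEP site stood at the ends of this range. Among the other DMSs 1.02% had fewer CpGs than KLHL3, and 2.45% had as many as the third MIPEP site or more. Its GC content was 64.2%, against 36.4% at KLHL3.

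**Figure D4:**
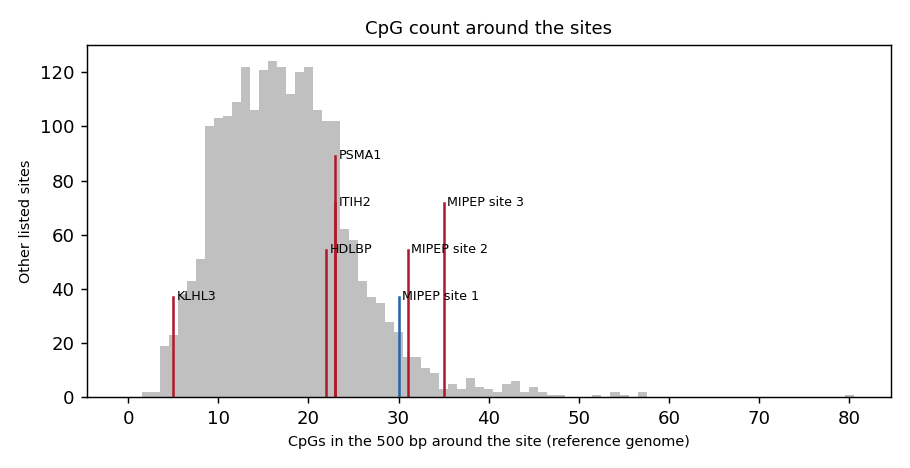
Number of CpGs in the 500 bp around each chromosomal DMS (horizontal axis), with the 2245 other DMSs as grey bars and the 7 sites as vertical lines (red, gain; blue, loss), whose heights only separate the labels. KLHL3 with 5 CpGs lies at the low end and the 3 MIPEP sites with 30 to 35 at the high end.

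With CpG islands drawn as stretches from 200 bp upward whose GC share passed 0.5 and whose observed over expected CpG ratio passed 0.6, 6 of the 7 sites lay in an island, all but KLHL3. Of the other chromosomal DMSs 70.6% did so. Under a stricter definition (500 bp, 0.55 and 0.65) the ITIH2 site and the 3 MIPEP sites remained, 4 of 7, against 17.2% of the other DMSs. The first and second MIPEP sites lie in overlapping windows, so the 7 are not independent.

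The in silico MspI fragments that hold the sites were 143 bp long for the third MIPEP site, 211 bp for HDLBP, 232 and 399 bp for the first and second MIPEP sites, 260 bp for ITIH2, 341 bp for KLHL3 and 1199 bp for PSMA1. Fragments of 40 to 220 bp held 2 of the 7 sites and 33.4% of the other chromosomal DMSs, and fragments of 40 to 400 bp held 6 of the 7 and 72.1% of the others. The PSMA1 site was the exception, 48 bp from the nearest MspI cut of its long fragment.

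The ITIH2 and PSMA1 sites lay in repeated sequence. All bases of both windows are written in lower case in the reference, its mark for repeats, as are 90.1% of the KLHL3 window, 52.5% of the HDLBP window and 0 bases of the MIPEP windows. At the DMS itself the base was marked at ITIH2 and PSMA1, 2 of the 7 sites, and at 63.6% of the other chromosomal DMSs. Searched against the whole genome, the PSMA1 window had 6314 further matches of at least 90 aligned bases and 95% identity. The other 6 windows had 0 such matches. At 90% identity PSMA1 had 35002 further matches, ITIH2 1194 and KLHL3 3, while HDLBP and the 3 MIPEP sites still had 0. Reads from copies this alike can be assigned to the wrong place; whether that took part in the gain listed at PSMA1 was not tested.

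Compared over 400 bp to each side, the minus strand at PSMA1 aligned with the plus strand at ITIH2 over 310 columns with 247 identical bases (79.7%). Both windows thus hold copies of the same kind of repeat, in opposite orientation. The CpG measured at ITIH2 is also a CpG in the PSMA1 copy. The CpG measured at PSMA1 falls 34 bp further along in the ITIH2 copy. The gains at these sites, 30.6 points at ITIH2 and 25.7 points at PSMA1, therefore stood at separate CpGs of a shared kind of element.

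None of the 7 sites fell in the promoter window of its gene, taken as 250 bp before to 50 bp after the RefSeq start. That start is the outermost of the gene. KLHL3 with 16 transcripts and HDLBP with 11 also have starts farther inside, and no windows were drawn at those. The ITIH2 window is shown because its site lies nearest to a start. The KLHL3 window is shown because it alone holds a searched word of the vitamin D receptor element, AGGTCA or GGTTCA. Capitals mark every CpG in the ITIH2 window (chr10:63672151-63672450, minus strand) and the word AGGTCA or its reverse complement TGACCT in the KLHL3 window (chr2:139890030-139890329, minus strand).
ITIH2 promoter: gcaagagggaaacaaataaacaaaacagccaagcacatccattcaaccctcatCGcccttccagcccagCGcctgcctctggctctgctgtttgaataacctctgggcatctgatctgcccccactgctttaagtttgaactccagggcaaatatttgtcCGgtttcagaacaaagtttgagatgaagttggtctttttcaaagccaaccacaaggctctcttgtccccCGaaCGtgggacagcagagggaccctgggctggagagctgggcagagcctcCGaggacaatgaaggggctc
KLHL3 promoter: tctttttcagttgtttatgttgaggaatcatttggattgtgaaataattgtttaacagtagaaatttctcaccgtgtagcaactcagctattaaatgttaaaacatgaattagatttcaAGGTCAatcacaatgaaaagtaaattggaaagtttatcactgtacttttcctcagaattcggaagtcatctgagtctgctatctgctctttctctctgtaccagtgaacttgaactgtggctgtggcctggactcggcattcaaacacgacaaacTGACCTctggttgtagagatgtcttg

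The ITIH2 window holds 6 CpGs, and 24.6% of the 19556 protein-coding promoter windows hold fewer. The median window holds 16. KLHL3 had 4 CpGs, PSMA1 and HDLBP had 22 each and MIPEP had 34. The distance from the window to the closest DMS of the gene was 2222 bp for ITIH2, 17375 bp for PSMA1, 27510 bp for MIPEP, 47166 bp for HDLBP and 161701 bp for KLHL3. Words of the vitamin D receptor element were searched on both strands as AGGTCA and GGTTCA, neither of which is a match of the other. Other words of the element were not searched. AGGTCA was found in the KLHL3 window alone of the 5, with 1 match on each strand, and in 14.1% of all windows, and GGTTCA in none of the 5 and in 10.0% of all. CCGG, the MspI site, was present in the windows of ITIH2, MIPEP, PSMA1 and HDLBP and in 67.5% of all. These matches describe the letters only.

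Other DMSs near the sites were counted without a table-wide rate beside them, so the counts are not read as few or many. Within 10 kb of the sites the table holds 0 DMSs of other genes, within 100 kb it holds 4 and within 1000 kb 25, of which 12 were gains and 13 losses. The 4 within 100 kb were a loss at ATP5F1C (-37.0 points), which encodes a subunit of mitochondrial ATP synthase, 93195 bp from the ITIH2 site; a gain without a symbol (34.9 points), 88036 bp from the third MIPEP site; and gains of 36.5 and 32.4 points at FARP2, a guanine nucleotide exchange factor, 99489 and 99537 bp from the HDLBP site. PSMA1 and KLHL3 had no other DMS within 100 kb. The next listed site was 301176 bp away at PDE3B (-26.0 points) for PSMA1 and 757914 bp away at ETF1 (-33.0 points) for KLHL3. Around ITIH2, 6 of the 9 DMSs within 1000 kb were losses, against 955 of all 2349 DMSs. Apart from that of ATP5F1C, these losses all lay at SFMBT2, so they do not stand for separate genes. The largest was -60.1 points, and SFMBT2 also held a gain of 42.5 points.

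**Figure D5:**
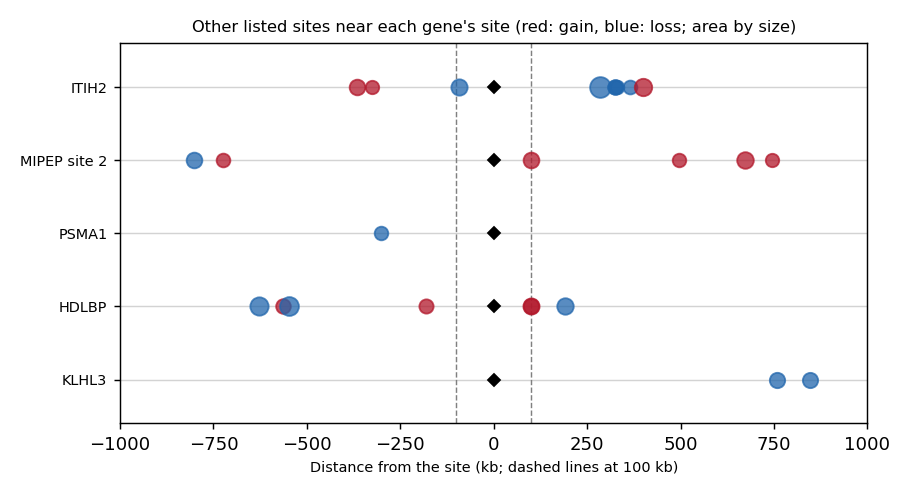
Other DMSs within 1000 kb of the sites (black diamonds; for MIPEP, the second site) by distance in kb, with gains in red, losses in blue and the area of a circle in proportion to the size of the difference. Within 100 kb (dashed lines) there are 4, and none around PSMA1 or KLHL3.

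The other genes of each pathway were taken from 7 lists. Of all 19535 RefSeq protein-coding genes, 839 (4.29%) had a DMS under their symbol. Among 23 inter-alpha-trypsin inhibitor and hyaluronan matrix genes, VCAN, the hyaluronan-binding proteoglycan versican, was the only one beside ITIH2, with a loss (-26.4 points) at a position 92478 bp from the RefSeq gene and inside the neighbouring XRCC4. Among 30 genes of mitochondrial presequence processing and proteolysis, OMA1, a stress-activated protease of the inner membrane, had an intronic gain of 29.4 points beside MIPEP. Among 50 proteasome genes, PSMB1, a beta-type subunit of the core, had a gain of 25.7 points beside PSMA1, 4521 bp outside the gene. Its q of 1.2e-05 was above that of PSMA1.

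Among 25 genes of HDL and lipoprotein metabolism, APOA2, an apolipoprotein of HDL, had a loss (-43.1 points), 1438 bp outside the gene, beside HDLBP. Drawn by RefSeq position with 5000 bp to each side, LRP1, a lipoprotein receptor, was added with gains of 51.3 and 49.1 points at sites without a symbol. Among 30 KH domain genes, ANKRD17 had a gain of 33.9 points and IGF2BP3, an mRNA-binding protein, had 3 losses (-27.3, -25.8 and -32.2 points), all intronic. Among 42 genes of the KLHL family, KLHL36 had an intronic loss (-29.4 points) beside KLHL3. Of 20 genes around CUL3, the WNK kinases and the salt cotransporters they control, SLC12A3, the sodium chloride cotransporter of the kidney, had an intronic gain of 26.0 points beside KLHL3. With the 5 genes left out, each list thus had 1 or 2 genes with a DMS. No list was tested.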

How the data were processed

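Lung DNA of 16 pigs was sequenced after MspI digestion and bisulfite conversion. In the study's methods, reads were trimmed with FlexBar and aligned with BSMAP in its MspI mode, CpGs were held to a minimum read count, and methylKit compared the groups. The submitters' processing notes name methylKit 1.26.0, FastQC and the build Sscrofa11.1. The q-value of each site was deposited as the authors computed it; the raw p-value beside it was not used. The methylation difference, deposited by the authors as well, was used as a signed score in percentage points. The sources used here do not say if that test counted animals or reads; q-values from reads alone would be too small.

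Groups came from the treatment labels. The 1 deposited table was used, with 0 columns of values per animal left out. Gene models, promoters, CpG counts and MspI fragments came from the RefSeq copy of Sscrofa11.1 (Python 3.11.15, numpy 2.4.6). Introns were numbered in the transcript with the most exons among those that span the site. Copies of the windows around sites were counted with BLAST 2.17.0 and windows aligned with Biopython 1.88. The functions were tested on simulated data. All 2252 chromosomal DMSs were CpGs, and in 0 of 2232 steps between neighbours did the row number rise by more than the reference CpGs, which is why it was read as counting tested sites.

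Named genes were the 5 genes, list genes with a DMS and the nearest genes within 100 kb; PDE3B, ETF1, SFMBT2, XRCC4 and LRP1 were named after their values were seen. Some list genes are not reported here. The genes and lists were chosen with earlier results of these data known. The identity limits and the distance between neighbours were set after seeing the data.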

Additional observations from a re-analysis of the deposited data

How the results depend on the processing

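With at least 30 points asked for in place of 25, 3 of the 7 sites remained, those of ITIH2, HDLBP and KLHL3, all 3 of them gains. With a q under 1e-10, 6 sites and 5 gains remained, without HDLBP. Taking RefSeq gene bodies with 5000 bp to each side in place of the symbols gave 6 sites and 5 gains, without PSMA1. With promoters of 5000 bp, 1 site (ITIH2) was a promoter site, against 0 with 1000 or 2000 bp. MspI fragments of 40 to 400 bp held 6 sites, against 2 with 40 to 220 bp. Other DMSs near the sites numbered 0 within 10 kb and 25 within 1000 kb, against 4 within 100 kb. Of 43 further alternative values, given per site or list, 7 moved by over 1.5 times. All the values compared are counts, percentages or densities without a sign, so none could have reversed.

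No paired analysis was possible because the table holds no values per animal and the labels give no shared replicate numbers. For the same reason the intended alternatives of another coverage minimum and of leaving out each animal were not run. Depth is unknown, so it cannot be said which of the differences are the more precise.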
